A study of Arabidopsis thaliana with 10 samples.

Results

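The loci described here are the 4091 intergenic stretches of the Arabidopsis thaliana genome that the authors predicted as possible long noncoding RNA (lncRNA) loci of their level 3 and for which they recorded no conserved RNA structure. They were taken from the deposited level 3 list as the rows whose genomic class is intergenic and whose entry for structure conservation is not YES. The list holds 4396 loci in all. Every one of them is classed as intergenic, and the other 305 have a conserved structure, so those 305 are the comparison within the list. No level 3 locus is classed as antisense or as a transposable element. The 3 deposited lists together hold 5758 lncRNA loci, and 226 intergenic loci of levels 1 and 2 and 48 annotated intergenic lncRNA loci are set beside the level 3 loci where the same measure exists.

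The study sequenced RNA of Col-0 plants to find lncRNAs that respond to abiotic stress. It has 10 libraries, of which 9 are strand-specific libraries of the RNA of 12-day-old seedlings left after removal of polyadenylated and ribosomal RNA. Seedlings were left untreated (3 h) or were placed under heat of 37 °C, cold of 4 °C, drought imposed with 300 mM mannitol or salt at 200 mM NaCl, each for 3 h and for 12 h, with 1 library per condition. The tenth is total RNA, freed of ribosomal RNA, from a mix of inflorescences, rosette leaves, cauline leaves and stems of untreated plants at 5 weeks. The level 3 list has 0 expression columns, so nothing below says whether a locus is transcribed, in which sample, or from which strand, and no condition can be compared. What the list gives for each locus is a position, a blastn bit score of DNA conservation, a randfold p-value, a structure conservation index (SCI) and the structure classes.

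Long noncoding RNAs are transcripts longer than typical small RNAs that are not known to encode a protein. Some act on neighbouring genes or as scaffolds, some are precursors of small RNAs, and for most no function is known. The DNA between genes also holds promoters, enhancers, transposon remnants and unannotated exons, and any of these can be conserved between species without being transcribed as a lncRNA. A conserved RNA structure is scored separately from conserved DNA: the SCI compares the folding energy of the consensus structure of aligned sequences with that of the single sequences, so it is high where related sequences can adopt 1 common fold.

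The following sequences show what the loci look like. They were read from the RefSeq reference TAIR10.1 at the deposited coordinates and are printed 5′ to 3′ on the plus strand, since the list gives no strand. The first has the highest bit score, and the second is a locus of median length at the median GC content. Ties for both went to the lower randfold p-value. The second, locus-692, is thus not typical throughout. It has 5 copies in the genome and a randfold p-value of 0.619, against 1 copy in 3975 loci and a median of 0.905. The third is the most repeated, and the fourth, upstream of the homeobox gene BEL1, was chosen after its values were seen. Capitals in these 4 mark the longest run made only of A and T.
locus-818, chr1:24629751-24630000: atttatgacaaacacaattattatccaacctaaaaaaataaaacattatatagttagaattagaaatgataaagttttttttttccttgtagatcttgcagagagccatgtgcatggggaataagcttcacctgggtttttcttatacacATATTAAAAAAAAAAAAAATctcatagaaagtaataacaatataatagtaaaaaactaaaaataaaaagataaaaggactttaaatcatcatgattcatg
locus-692, chr1:21838851-21839100: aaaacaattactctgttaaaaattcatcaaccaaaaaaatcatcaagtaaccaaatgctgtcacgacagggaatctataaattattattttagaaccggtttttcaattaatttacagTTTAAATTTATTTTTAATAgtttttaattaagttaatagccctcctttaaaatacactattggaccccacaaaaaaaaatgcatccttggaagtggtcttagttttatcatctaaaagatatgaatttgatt
locus-3757, chr5:12879351-12879550: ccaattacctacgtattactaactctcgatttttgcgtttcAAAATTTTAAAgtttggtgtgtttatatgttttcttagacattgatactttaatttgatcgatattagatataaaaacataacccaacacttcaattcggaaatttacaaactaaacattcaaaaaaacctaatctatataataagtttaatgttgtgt
locus-3859, chr5:16577451-16577650: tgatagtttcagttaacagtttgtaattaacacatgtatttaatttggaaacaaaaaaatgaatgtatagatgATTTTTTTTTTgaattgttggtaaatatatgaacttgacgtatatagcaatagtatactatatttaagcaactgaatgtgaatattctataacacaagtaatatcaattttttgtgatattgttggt
The next pair sets the lowest deposited randfold p-value (locus-3252) beside the lowest computed folding energy per nucleotide (locus-1341, chosen after its values were seen). Capitals mark the bases that RNAfold pairs in the minimum free energy structure of the printed strand, 100 of 200 in locus-3252 and 144 of 200 in locus-1341. Energies quoted below are the lower of the 2 strands, which for both loci is that of the strand not printed. The printed strands of locus-3252 and locus-1341 fold at -21.1 and -71.6 kcal/mol, against -24.6 and -78.6 kcal/mol on the other strand. The rank of locus-1341 rests on the strand not printed.
locus-3252, chr4:17482851-17483050: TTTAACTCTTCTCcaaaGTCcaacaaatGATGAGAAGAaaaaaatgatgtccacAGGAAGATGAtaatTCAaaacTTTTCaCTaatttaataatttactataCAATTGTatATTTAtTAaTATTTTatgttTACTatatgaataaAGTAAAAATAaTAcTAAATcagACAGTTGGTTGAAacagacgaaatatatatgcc
locus-1341, chr2:7896001-7896200: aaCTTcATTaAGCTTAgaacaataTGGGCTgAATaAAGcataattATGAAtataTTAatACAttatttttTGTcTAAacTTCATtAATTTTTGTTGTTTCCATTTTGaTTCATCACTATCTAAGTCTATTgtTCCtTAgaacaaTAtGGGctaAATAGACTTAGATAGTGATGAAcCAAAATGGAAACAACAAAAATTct
Locus-1341 holds an inverted repeat: the 22 bases from position 86, counted from 1 at the printed 5′ end, return as their reverse complement from position 177. These are the outer parts of longer arms, which continue inward past a mismatched base.

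The loci were short and lay on a fixed grid. Every start in the level 3 list is 1 above a multiple of 50 and every end is a multiple of 50, so lengths move in steps of 50 bp. They ran from 200 to 950 bp with a median of 250 bp (quartiles 200 and 300). Of the 4091 loci, 1958 (47.9%) had the shortest length, 200 bp, and 276 (6.75%) reached 400 bp or more. The loci with conserved structure had a median of 200 bp (quartiles 200 and 300) and 156 of 305 (51.1%) were 200 bp long, so both groups had the same quartiles. Intergenic loci of levels 1 and 2 had a median span of 322 bp and annotated intergenic lncRNA loci one of 978 bp. The longest locus was locus-1120 of 950 bp on chromosome 1, 701 bp from AT1G78230, with a bit score of 138. It was followed by locus-734 and locus-2805 of 800 bp each, the latter 402 bp from CRF1, a cytokinin response factor, and by locus-5 and locus-985 of 750 bp, which lie 626 bp from CIPK9, a protein kinase that partners calcium sensors, and 7779 bp from the sucrose transporter gene SUC1. The nearest reference gene of any kind to locus-985 is the lncRNA gene AT1G09273, at 2474 bp.

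The composition of the loci was narrow and rich in A and T. The median GC content was 26.0% (quartiles 24.0% and 27.5%, range 13.5% to 36.0%), against 36.0% over the nuclear genome. Windows of 200 bp tiled over all DNA outside reference genes had a median of 30.0%, and 90% of these 184786 windows lay between 20.0% and 42.0%, while the same span of the loci was 21.4% to 29.6%. At or under the window median lay 3975 of the 4091 loci (97.2%; exact 95% interval 96.6% to 97.7%). The loci therefore gather in the lower middle of the intergenic range, with few in either tail. Under 20.0% GC, the 5th percentile of the windows, lay 66 loci (1.61%), and 32460 of the windows had more GC than the richest locus. Among loci of 200 bp alone, the length of the windows, the share was 96.9%. The loci with conserved structure had the same median, 26.0%, with 300 of 305 (98.4%) at or under the window median, so composition did not separate the groups. Intergenic loci of levels 1 and 2 had a median of 33.9%, with 33 of 226 (14.6%) at or under the window median, and annotated intergenic loci one of 35.3%, with 0 of 48. The DNA outside genes that the level 3 list covers is thus poorer in GC than the intergenic lncRNAs of the other lists. The richest loci were locus-2544, 514 bp from the receptor kinase gene CCR3, and locus-679, both at 36.0%. The poorest were locus-3927 at 13.5%, 2205 bp from AT5G45240, and locus-2577 at 14.5%, 346 bp from AT3G57800.

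**Figure D1:**
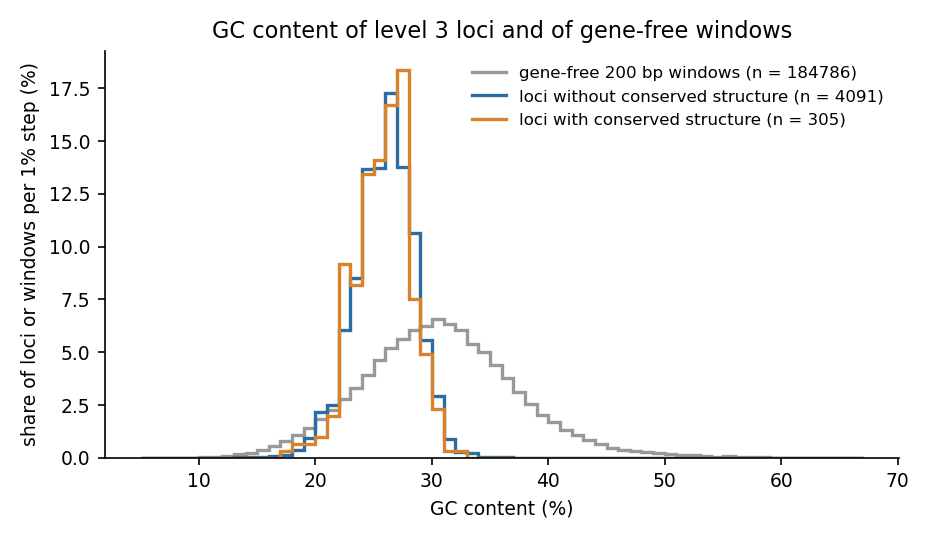
Distribution of GC content (%) over 4091 level 3 loci without conserved structure (blue), 305 with conserved structure (orange) and 184786 gene-free windows of 200 bp (grey), as the share of each set per step of 1%. Both groups of loci stand in 1 narrow peak around their shared median of 26.0%, left of the windows' median of 30.0%.

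The loci were spread over all 5 nuclear chromosomes. Chromosomes 1 to 5 held 1064, 702, 712, 605 and 1008 of them, which is 30.3 (chromosome 3) to 37.4 (chromosome 5) per Mb, and 5.65% (chromosome 2) to 8.19% (chromosome 4) of the level 3 loci of a chromosome had a conserved structure. They thinned out towards the gene-poor centre of each chromosome, taken here as the middle of the longest run of the bins of 100 kb with fewest genes. Within 2 Mb of these centres lay 296 loci (7.24%; exact 95% interval 6.46% to 8.07%), against 16.8% of the genome and 46106 of the 184786 gene-free windows (25%). Counted per 1000 gene-free windows, there were 6.42 loci within 2 Mb of a centre, 17.3 at 2 to 4 Mb, 26.5 at 4 to 6 Mb, and 37.2 beyond 12 Mb. The loci with conserved structure had 19 of 305 (6.23%) within 2 Mb.

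Most loci lay close to genes but rarely next to a coding one. Of the 4091, 2538 (62.0%) were within 1000 bp of any reference gene and 1960 (47.9%) within 1000 bp of a protein-coding gene, counting overlaps. Among the 305 loci with conserved structure the numbers were 183 and 131 (43.0%), and the exact 95% interval of the latter, 37.3% to 48.7%, includes the former group's value. The median distance to the nearest coding gene was 1040 bp (quartiles 632 and 1840). Only 119 loci (2.91%) lay outside but under 300 bp from a coding gene, while 1394 (34.1%) lay at 500 to under 1000 bp and 1231 (30.1%) at 1000 to under 2000 bp. At 300 to 3000 bp from a coding gene lay 3445 of the 4091 loci and 100217 of the 184786 gene-free windows. Shares of the windows within 1000 bp of a gene are not given here, so closeness at that distance is not shown to be particular to the loci. By length of the space between neighbouring coding genes, 13 of 12731 spaces under 1000 bp held a locus (0.102%). The share was 8.83% at 1000 to under 2000 bp and 28.5% at 2000 to under 4000 bp. It was 42.6% at 4000 to under 8000 bp, 47.8% at 8000 to under 16000 bp and 36.2% at 16000 bp or more. Longer spaces offer more room for a locus. Per 10 kb of space, the same 6 classes held 0.0277, 0.650, 1.31, 1.28, 0.960 and 0.152 loci, so density was highest at 2000 to under 8000 bp.

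The orientation of the flanking coding genes was uneven. Of the 4021 loci with a coding gene on both sides and no overlap with one, 1620 (40.3%) lay between divergent genes, that is between 2 gene starts, 2028 (50.4%) between genes in tandem and 373 (9.28%) between convergent genes. Of the gene-free windows 34.0% lay between divergent and 13.1% between convergent genes. The nearest coding gene turned its 5′ end to the locus in 2668 of 4021 cases (66.4%; exact 95% interval 64.9% to 67.8%), against 60.9% of the windows. Part of this gap goes with distance: among loci and windows 300 to 3000 bp from a coding gene the shares were 65.8% and 63.2%, and 39.0% and 36.0% for divergent spaces. The loci with conserved structure had nearly the same values, 66.6% on the 5′ side and 40.1% in divergent spaces. Bit scores did not follow the arrangement: the median was 109 between convergent, divergent and tandem genes alike.

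Part of the loci stood close together. When loci with at most 1000 bp between them were joined, 2598 stood alone and 1493 (36.5%) fell into 630 clusters, 453 of them pairs and 138 of them triples. Of neighbouring loci, 119 pairs were separated by a single grid step of 50 bp. Of the 305 loci with conserved structure, 77 lay within 1000 bp of a locus without one. Neither those loci nor gene-free DNA were joined in the same way, so the clustering is not shown to be particular to the loci. The largest cluster had 7 loci, locus-837 to locus-843, at chr1:25023101-25026950 between TRM22, a gene of the family that recruits the microtubule-organising TONNEAU1 protein, and AT1G67050. Its first 3 loci, locus-837, locus-838 and locus-839, had bit scores of 95.1, 77.0 and 122, and the 7 together ranged from 77.0 to 156, so a cluster was not of 1 level of conservation. The nearest gene of the first locus was the lncRNA gene AT1G08883 at 209 bp, and that of the last the lncRNA gene AT1G08887 at 168 bp.

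Counted by the space between neighbouring coding genes, 2699 spaces held a locus and 832 held at least 2. The 9 spaces with 7 or more loci are named here after their counts were seen. Of the pair with 8 loci, one lies upstream of AN3, a coactivator of leaf growth, and WVD2, a microtubule-associated protein (24645 bp, divergent), and the other beside ERF15, an ethylene response factor, and AT2G31240 (9698 bp, tandem). The 7 spaces with 7 loci include those beside HB-7 and HB6, a pair of homeodomain-leucine zipper factors of abscisic acid responses, beside MYB70, and between NAC3 and NAC2. The NAC3 to NAC2 space holds its 7 loci in 7235 bp with a median bit score of 150, the highest among the 9, whereas the space of HB6 has a median of 100 with scores from 48.2 to 147.

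The bit score of DNA conservation, as deposited, is the blastn score of the locus against other sequence, with the searched genome and settings not given in the sources used here. Loci without conserved structure had a median of 109 bits (quartiles 84.2 and 129, range 44.6 to 181), and those with conserved structure a median of 116 bits (quartiles 96.9 and 134, highest 174). Both distributions overlap over nearly their whole length and part mainly at the low end. Under 60 bits lay 409 of 4091 loci (10.00%; exact 95% interval 9.09% to 11.0%) without conserved structure and 6 of 305 (1.97%; 0.725% to 4.23%) with it. At 150 bits or more the shares were 7.14% and 8.20%. The SCI that defines the groups is itself computed from aligned related sequences, so the part of DNA conservation in that class cannot be told apart here. Intergenic loci of levels 1 and 2 had a median of 131 bits and annotated intergenic loci one of 145 bits.

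**Figure D2:**
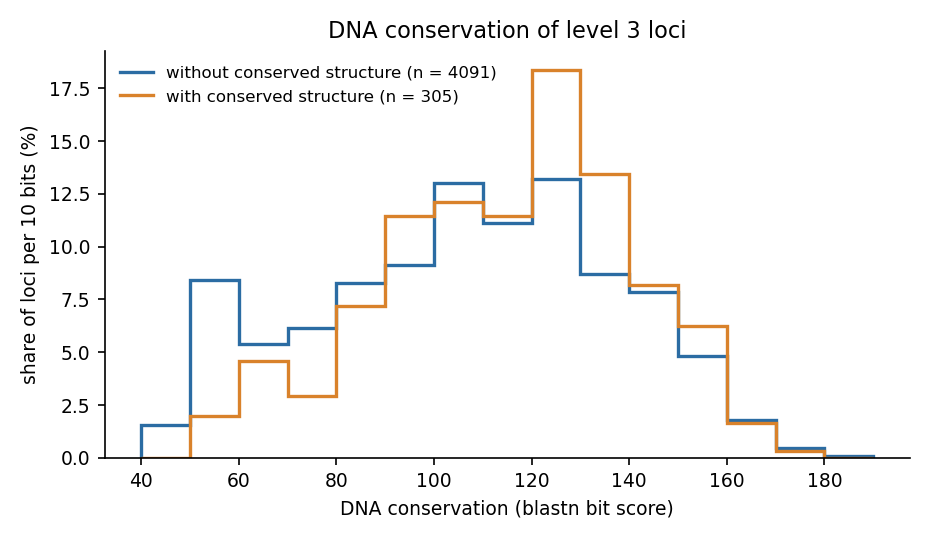
Distribution of the deposited blastn bit score over 4091 level 3 loci without conserved structure (blue) and 305 with it (orange), as the share of each set per step of 10 bits. Below 60 bits stand 10.00% of the first and 1.97% of the second, and neither group passes 181 bits.

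No score in the 3 lists exceeded 181 bits. Of the loci, 3 reached this value, as did 5 transcripts of levels 1 and 2 and 41 annotated transcripts, the longest with a genomic span of 4947 bp, so the score did not grow with length beyond that ceiling. Among the loci, longer ones had somewhat higher scores, with medians of 105 bits at 200 bp (1958 loci), 111 bits at 300 bp (480), 114 bits at 400 bp (115), 123 bits at 500 bp (35) and 117 bits at 600 bp (18). The few of 650 bp or more, 1 to 4 at each length, had medians of 104 to 151 bits. Across the 4091 loci the Spearman correlation of the bit score was 0.0970 with length and 0.0370 with GC content, both given as descriptions since neighbouring loci share their stretch of genome.

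The score did follow the position along the chromosome arm. Within 2 Mb of a gene-poor centre the median was 84.2 bits (quartiles 66.2 and 109; 296 loci). It was 96.9 bits at 2 to 4 Mb, 107 bits at 4 to 6 Mb, 113 bits at 8 to 10 Mb and 116 bits (98.7 and 134; 723 loci) beyond 12 Mb. The share under 60 bits fell with it, from 19.9% within 2 Mb to 4.29% beyond 12 Mb. The Spearman correlation of score and distance from the centre was 0.241 over all loci, and 0.201 to 0.285 within each of the 5 chromosomes (lowest on chromosome 1, highest on chromosome 4). On every chromosome the median beyond 8 Mb, 114 to 116 bits, was above that within 4 Mb, 89.7 to 95.1 bits. The few loci with conserved structure within 2 Mb had a median of 105 bits (19 loci), and those beyond 12 Mb one of 114 bits (66 loci). Between these their medians were 113 bits at 2 to 4 Mb, 122 at 4 to 6 Mb and 110 at 6 to 8 Mb. They were 123 bits at 8 to 10 Mb and 127 at 10 to 12 Mb, so the conserved group did not climb steadily. Loci at least 5000 bp from any coding gene had a median of 87.8 bits (179 loci), against 109 bits at 500 to under 5000 bp, so distance from genes moves with the score too, and its part in the trend was not tested.

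**Figure D3:**
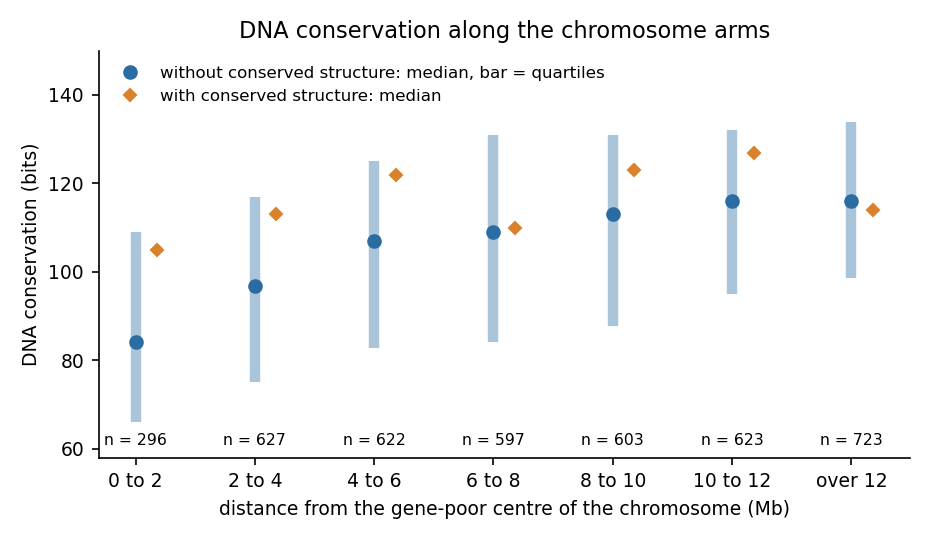
Bit score of DNA conservation against distance from the gene-poor centre of the chromosome (Mb); blue points are medians of the loci without conserved structure with bars from the lower to the upper quartile and n printed below, orange diamonds medians of the loci with conserved structure. The blue medians climb from 84.2 bits within 2 Mb to 116 bits beyond 10 Mb.

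The 10 loci of highest score lay 360 to 3211 bp from the nearest coding gene. Locus-818 (printed above), locus-648 and locus-1575 had 181 bits. Locus-818 lies on the 5′ side of CLE18, which encodes a small signalling peptide of the CLAVATA3 family, at 915 bp. Locus-648 (chr1:20761701-20762000) lies 1432 bp from the 3′ end of sks12, a gene of the multicopper oxidase-like SKU5 family, and locus-1575 (chr2:12412751-12413050) lies 1057 bp from the 3′ end of OEP16-1, a plastid outer envelope protein. Locus-2576 (chr3:21378951-21379250) and locus-3316 (chr5:57451-57650) followed with 176 bits, 1397 bp and 360 bp from the 5′ ends of AT3G57680 and AT5G01170. In all 10 loci (0.244%) had 176 bits or more and 21 (0.513%; exact 95% interval 0.318% to 0.784%) had 172 or more. Of the 305 loci with conserved structure, 0 and 1 did (0.328%; 0.00830% to 1.81%), so the shares were not told apart.

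Of those 21 loci, 3 lie in 1 intergenic space, that upstream of BEL1 (AT5G41410, chr5:16579936-16584077, plus strand), a homeodomain factor known for its role in ovule integument development. This space was singled out after its values were seen. It measures 7746 bp, separates BEL1 from the divergent gene AT5G41401, and holds 5 level 3 loci, none with a conserved structure. Going towards the gene, locus-3857, locus-3858, locus-3859, locus-3860 and locus-3861 end 4285, 2835, 2285, 1635 and 1085 bp before the annotated start. Their bit scores were 176, 95.1, 176, 132 and 172, so 3 stretches near the ceiling alternate with weaker ones. Locus-3859, printed above, has a GC content of 23.0% and locus-3857 one of 28.8%. No locus of the space overlaps a reference gene.

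**Figure D4:**
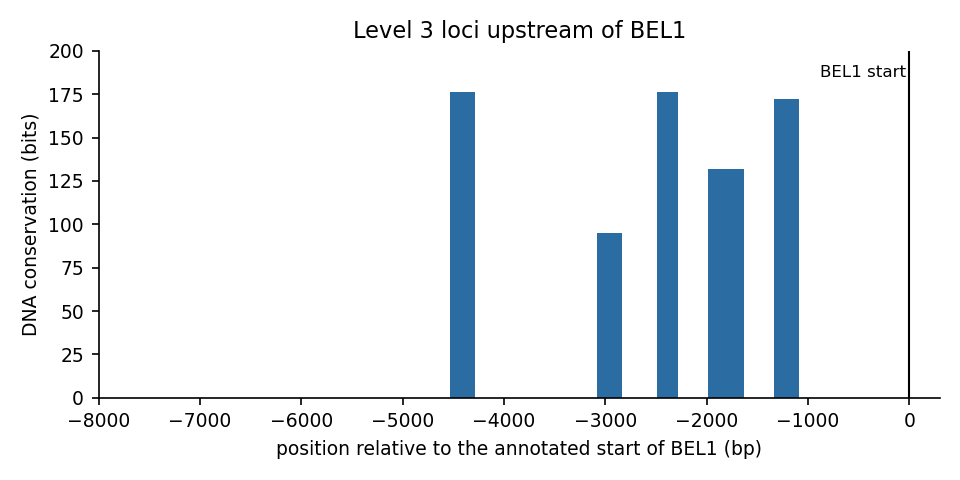
The 5 level 3 loci in the space upstream of BEL1, drawn as bars as wide as the locus at their distance from the annotated start of the gene (bp), with the bit score of DNA conservation as height. Scores of 176, 176 and 172 bits stand among scores of 95.1 and 132 bits.

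Randfold compares the folding energy of a sequence with that of shuffled copies of it and is commonly read as a p-value that is low where the native sequence folds more stably. With the deposited values read in that way, none of the 4091 loci passed a threshold of 0.05 (0 of 4091, which allows a share of up to 0.0733%, for counting error only), and none of all 4396 level 3 loci did either (0%). With the values turned, that is read as 1 minus p, 1937 of the 4091 loci (47.3%) would pass, against 2089 of all 4396 level 3 loci (47.5%), and which reading applies is not settled by the header. The deposited values were multiples of 1/21 and ran from 0.333 to 0.952. The highest value, 0.952, was held by 1937 loci (47.3%; exact 95% interval 45.8% to 48.9%), the next, 0.905, by 933 loci, and 12 loci (0.293%) lay under 0.5. The loci with conserved structure had the same median, 0.905, with 152 of 305 (49.8%) at 0.952. Among the intergenic loci of levels 1 and 2 it was 75 of 226 (33.2%) and among annotated intergenic loci 24 of 48. The exact 95% interval of the conserved group, 44.1% to 55.6%, includes the 47.3% of the others.

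The orientation of the deposited randfold values, not given in the sources used here, was set beside computed folding energies. The energy of each locus was computed on both strands and the lower value taken. Its median was -0.162 kcal/mol per nucleotide (quartiles -0.179 and -0.146) for the 1937 loci at 0.952, and -0.136 for the 131 loci at 0.667 or less, at GC contents of 26% and 25%. Restricted to loci of 200 bp the medians were -0.161 (837 loci) and -0.134 (91 loci). The Spearman correlation over the 4091 loci was -0.299. Among the 20 loci of lowest energy per nucleotide 19 had 0.952, and among the 20 of highest energy 2 had. Loci that fold more stably therefore had the higher deposited values, opposite to the common reading, so neither end is called stable or unstable here by the deposited number, and the count past the threshold rests on the reading chosen.

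**Figure D5:**
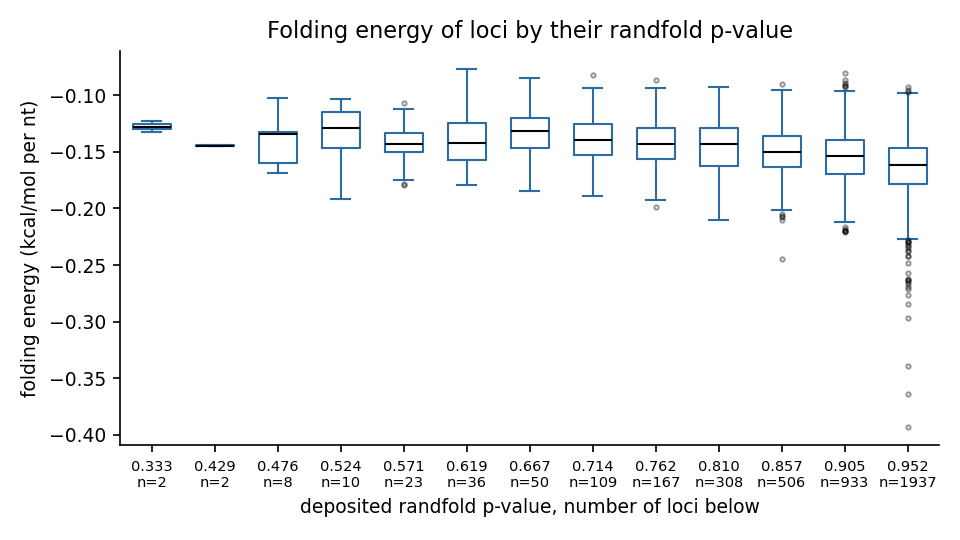
Computed folding energy (kcal/mol per nucleotide, lower of the 2 strands) of the 4091 loci by deposited randfold p-value, with the number of loci under each value; boxes span the quartiles, lines are medians, whiskers reach 1.5 times the box and points lie beyond. The median falls from -0.131 at 0.667 to -0.162 at 0.952, and the 3 lowest energies stand at 0.952. Below 0.667, with 2 to 36 loci at each value, medians lie between -0.144 and -0.128 without a steady course.

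Single loci varied around this relation. The 3 with the lowest randfold values were locus-3252 at 0.333, 703 bp from AT4G37100, locus-3187 at 0.333 (chr4:16527051-16527300), 1757 bp from AT4G34600, and locus-2509 at 0.429 (chr3:19620851-19621050), 2343 bp from the growth-regulating factor gene GRF4. Their energies per nucleotide were -0.123, -0.132 and -0.145, all less negative than the median of all loci, -0.155. Of the 1937 loci at 0.952, the first by position are locus-1, 2280 bp from NAC001, and locus-3, 1204 bp from AT1G01130, with energies of -0.174 and -0.148, the latter less negative than the median of all loci and close to that of locus-2509. The locus of lowest energy, locus-1341 at -0.393, lies 1811 bp from bZIP2, a basic leucine zipper factor. It was followed by locus-1417 at -0.364 (chr2:9566901-9567150), 1872 bp from AT2G22510, and locus-2338 at -0.339 (chr3:14687651-14687950), 1107 bp from AT3G42570. All 3 had a randfold value of 0.952 and an SCI of 0, and their bit scores of 95.1, 73.4 and 109 did not exceed the median of all loci. Over all loci, bit score and randfold value were unrelated in rank (Spearman 0.00334), as were GC content and randfold value (0.0173).

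The SCI set the rule, so its values are a description. It was 0 in 3905 of the 4091 loci and between 0.01 and 0.49 in the remaining 186, whose median was 0.320. The header puts conserved structure at an SCI above 0.5 over 5 plant species. Just inside the group stood 5 loci at 0.49, and just outside it 5 conserved loci at 0.50 and 4 at 0.51, so a value printed as 0.50 counted as conserved. The 186 loci with a low but positive SCI had a median bit score of 100, below the 109 of those at 0 and the 116 of the conserved group, so the bit score did not climb evenly with the SCI. No locus of the group is marked as matching a stress-related structure, against 186 of the 305 with conserved structure; that class presupposes conservation and is fixed by the rule.

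Nearly all loci were unique in the genome. With a blastn match of at least 80% identity over 80% of the locus counted as a copy, 3975 loci had 1 copy, their own, and 116 (2.84%; exact 95% interval 2.35% to 3.39%) had more, against 6 of 305 (1.97%) with conserved structure. Of the 116, 63 had 2 copies and 8 more than 10. Repeated loci stood nearer the centres, with 49 of 116 (42.2%) within 2 Mb against 6.21% of the unique ones, and had a median bit score of 80.6 against 109. The most repeated were locus-3757 (printed above) with 123 copies and locus-3756 (chr5:12871351-12871550) with 121, neighbours near the centre of chromosome 5. The same pair lay farthest of all from any reference gene, 8643 and 16643 bp, with bit scores of 84.2 and 73.4. Next in distance was locus-1273 (chr2:5943701-5943900), a unique locus of 57.2 bits at 7329 bp from the cytochrome P450 gene CYP705A13.

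The reference annotation names genes in some loci that the authors classed as intergenic. Of the 4091, 241 (5.89%; exact 95% interval 5.19% to 6.66%) overlap a reference gene by at least 1 base, against 24 of 305 (7.87%) with conserved structure. The overlapped genes are lncRNA genes for 118 loci (2.88%), protein-coding genes for 67, other noncoding transcripts (misc_RNA) for 58, transcribed pseudogenes for 6, snoRNA genes for 2, genes of the kind ncRNA for 2 and an snRNA gene for 1, and a locus can count under several kinds. No locus overlaps a miRNA, tRNA or rRNA gene. LncRNA genes were overlapped by 17 of the 305 loci with conserved structure (5.57%; 3.28% to 8.77%), against 2.88% (2.39% to 3.44%) here. The interval of the conserved group does not include the 2.88%, although the ends of both intervals overlap.

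Among loci on lncRNA, miRNA, tRNA, snRNA or snoRNA genes, the 5 best conserved all touched lncRNA genes. Nearly all loci of these kinds are on lncRNA genes, 118 against 2 on snoRNA genes and 1 on an snRNA gene. Loci on misc_RNA genes and on the remaining kinds were not ranked. Locus-1983 (chr3:3588051-3588400, 170 bits) shares 80 bp with AT3G02395 and lies 2200 bp from PP2CA, a protein phosphatase of abscisic acid signalling. Locus-3082 (167 bits) shares 88 bp with AT4G07805, locus-2494 (163 bits) 35 bp with AT3G08250, and locus-396 (156 bits) 161 bp with AT1G06373. Locus-192 (158 bits) touches a pair of lncRNA genes on opposite strands, AT1G05373 by 65 bp and AT1G05377 by 180 bp. The longest locus, locus-1120, likewise overlaps AT1G09793 by 22 bp and AT1G09797 by 166 bp. Among the loci on structural RNA genes, locus-2675 shares 53 bp with the snoRNA gene AT4G03925, locus-2231 shares 24 bp with the snoRNA gene AT3G04985, and locus-3471 shares 7 bp with the U6 snRNA gene U6.11p. The GC-rich locus-679 lies wholly inside the noncoding gene AT1G09685, with 600 of its 600 bp.

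Open reading frames in the loci were short. The longest frame from ATG to stop on either strand had a median of 25 codons (quartiles 17 and 34). In loci of 200 bp the median was 21 codons, equal to that of the gene-free windows, and 29 of 1958 such loci (1.48%) reached 50 codons against 2.32% of the windows. At 100 codons or more stood 3 loci, named after their values were seen: locus-4261 with 106 codons, locus-5 with 104 and locus-1005 with 102. Locus-4261 lies 84 bp from the snRNA gene U2.7, and its nearest coding gene is the vascular receptor kinase gene PXY at 1956 bp.

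Of 23 genes of stress response, the circadian clock and flowering chosen as possible neighbours, 1 had a locus within 1000 bp, against 2177 of all 27444 coding genes (7.93%). That gene was FLC, the MADS-box repressor of flowering: locus-3457 (chr5:3180051-3180250, 125 bits, GC content 21%) lies 602 bp from its 5′ end. The lncRNA gene AT5G01675 is nearer to this locus, at 450 bp. The nearest loci to the flowering gene FT and to SOC1, a MADS-box activator of flowering, lay 1501 and 1875 bp away, with bit scores of 102 and 154. For the temperature-responsive factor gene PIF4 the distance was 2200 bp, for the small heat shock protein gene HSP17.6 2456 bp, for the dehydration-induced gene COR47 3477 bp and for the drought and heat factor gene DREB2A 3788 bp. The cold-response factor genes CBF1, CBF2 and CBF3 shared 1 nearest locus, locus-3053, at 20949 to 27479 bp.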

How the data were processed

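The positions, blastn bit scores, SCI scores and randfold p-values of the level 3 loci were used as deposited. Per the file headers, the bit score is the authors' score of DNA conservation, the SCI their score of RNA structure conservation, and the randfold p-value their measure of RNA stability. Search settings, the searched genome and the method that selected level 3 loci were not given in the sources used here. Per the submitters' processing notes the build is TAIR10, and the tools include Cufflinks, TopHat2 2.0.8 and Bowtie 0.12.9. The level 3 list gives no reads, counts or sample values, so no depth per sample stands behind these values, and reads over the loci were not analysed here. The tables hold 42 columns of per-sample values that were not used.

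Sequences and genes come from the RefSeq copy of TAIR10.1. The 469 annotated lncRNA transcripts of the deposited lists that matched a reference gene by identifier all overlapped that gene on the same chromosome and strand. Of these, 226 had an identical end. GC content, distances, flanking genes and clusters (gaps of at most 1000 bp) were computed in Python 3.11.15 with pandas 2.3.3, numpy 2.4.6 and scipy 1.17.1, folding energies with RNAfold 2.7.2 at 37 °C, and copies with blastn 2.17.0 at an E-value of 1e-10. Isoforms of the other lists were averaged per locus. Gene-free windows are all non-overlapping 200 bp windows without a reference gene. The functions for GC content, open reading frames, copy counting, flanking genes and clusters were tested on small simulated inputs with known answers. The other steps were not tested in this way.

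Loci of 1 genome are not replicates of a condition, so groups are described by counts, medians, quartiles and shares with exact (Clopper-Pearson) 95% intervals, which cover counting error only, and no test was run. Named loci are the extremes of length, bit score, randfold p-value, GC content, copies and distance from genes. The first 3 of the largest cluster and neighbours of 23 listed genes are named too. So are the 5 most conserved on lncRNA, miRNA, tRNA, snRNA or snoRNA genes. Others are named as chosen after their values were seen. The members and lists were chosen with earlier results of these data known.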

Additional observations from a re-analysis of the deposited data

How the results depend on the processing

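An alternative counted as moving a median or share where it fell outside the exact 95% interval of the main value, and a count where it differed by more than 1.5 times. Of 25 alternatives, 15 did not move their value: the median length (250 bp), the median bit score (109) and the median GC content (26.0%) were the same among the 3850 loci that overlap no reference gene, and clusters numbered 461 at gaps of 500 bp and 753 at 2000 bp. Several of the 15 could not have moved. With the lowest deposited randfold value at 0.333, no locus could pass at 0.01 or 0.10, without gene overlap, or after merging. All 4091 loci had a bit score of at least 44.6 and an explicit structure entry. Counting blank scores as 0, leaving out scores of 0 and using explicit entries only therefore changed nothing. These unmoved values say nothing about steadiness. The other 10 moved. Several of them change the quantity itself, namely the unit of the bit score, the distance to a gene, the genes counted and the span around a centre. That these moved says nothing about steadiness either. With the randfold value read as 1 minus p, 47.3% of loci passed 0.05 and 70.2% passed 0.10. Dividing the bit score by length gave a median of 43.6 bits per 100 bp. The share near a gene was 29.3% within 500 bp, 87.8% within 2000 bp and 47.9% within 1000 bp of coding genes. The share near a chromosome centre was 13.2% within 3 Mb and 1.61% within 1 Mb. Copies at 90% identity over 90% of the locus left 0.953% of loci repeated. The share at or under the window median of GC was 94.8% when loci and windows 300 to 3000 bp from coding genes were compared. This alternative, the turned randfold readings, that for loci of 200 bp and that for the 5′ side were chosen after seeing the data. No paired analysis was possible because the level 3 loci carry no sample values. The precision rests on the number of loci alone, and strand and transcription of the loci were not analysed here.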
